A study of Mus musculus with 17 samples.

Results

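Peaks of histone H3 lysine 27 acetylation (H3K27ac) inside very long genes of the mouse hypothalamus are described here. A peak was counted when its summit lay inside an autosomal protein-coding gene whose span in mm10 exceeds 500 kb, and more than 2500 bp from both ends of every protein-coding gene. This rule gave 14233 of the 183678 peaks in the list, or 7.75%. The host genes numbered 216 of 20665 autosomal protein-coding genes (1.05%), and 213 of them held at least 1 such interior peak. The share of genes takes no account of their length, so it is no measure for the share of peaks. Densities per Mb are given below. The rule used position only, so the numbers, densities and fold values below were not fixed by it, although the length of the genes was.

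The peak list comes from bulk CUT&Tag, in which an antibody guides the transposase Tn5, fused to protein A, to the mark in nuclei, so that DNA next to the mark is cut and sequenced. The labels give 3 bulk hypothalamus samples with an antibody against H3K27ac, titled as biological replicates, and 14 Paired-Tag libraries (7 of DNA and 7 of RNA), which were not analysed here. No treatment, genotype or comparison group is named for the bulk samples, and strain, age and sex are not given in the labels. One list covers the 3 samples, so no value below has a spread between replicates, the read depth is unknown, and no comparison carries a test across samples. In a bulk sample, a mark present in few cells and a weak mark in many cells cannot be told apart. As a check of the tissue, 6 of 6 genes known from the hypothalamus (Nkx2-1, Otp, Sim1, Rax, Pomc and Hcrt) carried a peak at most 1 kb from an end of their span, and 0 of 3 genes of other tissues or body regions (Hoxa10, Alb and Cd3e) did. Such a peak was carried by 71.0% of all autosomal protein-coding genes, so the 6 of 6 alone says little of the tissue.

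H3K27ac is laid down by the acetyltransferases p300 and CBP at active promoters and enhancers, and a CUT&Tag peak marks a stretch where it is enriched. Genes of extreme length are known above all from neurons, where they encode adhesion molecules, axon guidance receptors, synaptic scaffolds and ion channels. Much of their length is intron, transcription through them takes long, and many use inner promoters that make shorter proteins. Several coincide with common fragile sites, regions that break when DNA replication is slowed.

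Because peaks at inner promoters had the highest median fold among the interior peaks, 8 of them are shown first. Fold is the authors' value for each peak, the enrichment over the background of their peak caller, on a linear scale. The sequences are promoters from RefSeq (build GRCm38.p6, the assembly that mm10 denotes), each 300 bases from 250 before to 50 after a listed start, 5′ to 3′ on the strand of the gene. Capitals mark each CG dinucleotide. The first 4 are the inner starts of a host gene with the highest fold within 1 kb, taking 1 start per gene: Cntn4 (an adhesion molecule of the contactin family) at chr6:106118515-106118814 on the plus strand, Nkain2 (a membrane protein that interacts with the sodium pump) at chr10:32889866-32890165 on the minus strand, Ank2 (ankyrin-B, which links membrane proteins to the spectrin skeleton) at chr3:127409009-127409308 on the minus strand, and Unc13c (a vesicle priming protein) at chr9:73968988-73969287 on the minus strand. The next 2 are the inner starts of Robo2, a receptor for the guidance cue Slit, at chr16:75092721-75093020 and chr16:74411776-74412075 on the minus strand, chosen after the values were seen since they carry most of the signal in that gene. The last 2 are the inner starts farthest from any interior peak of their gene, Mgat4c (an enzyme related to glycan-branching transferases) at chr10:102374187-102374486 on the plus strand and Mecom (a zinc finger transcription factor) at chr3:30013155-30013454 on the minus strand.
Cntn4: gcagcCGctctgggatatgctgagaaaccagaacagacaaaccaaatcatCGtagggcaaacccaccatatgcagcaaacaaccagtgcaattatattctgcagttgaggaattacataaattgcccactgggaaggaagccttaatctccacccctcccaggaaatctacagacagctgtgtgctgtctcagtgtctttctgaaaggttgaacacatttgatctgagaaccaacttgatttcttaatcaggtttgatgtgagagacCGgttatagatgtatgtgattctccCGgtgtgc
Nkain2: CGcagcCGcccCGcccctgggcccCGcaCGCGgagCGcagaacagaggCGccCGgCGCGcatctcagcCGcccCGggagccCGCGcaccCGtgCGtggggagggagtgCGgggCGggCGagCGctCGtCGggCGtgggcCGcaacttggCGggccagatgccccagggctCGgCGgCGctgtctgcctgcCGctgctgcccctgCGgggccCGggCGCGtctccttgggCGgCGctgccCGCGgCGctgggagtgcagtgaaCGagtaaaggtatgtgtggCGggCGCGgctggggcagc
Ank2: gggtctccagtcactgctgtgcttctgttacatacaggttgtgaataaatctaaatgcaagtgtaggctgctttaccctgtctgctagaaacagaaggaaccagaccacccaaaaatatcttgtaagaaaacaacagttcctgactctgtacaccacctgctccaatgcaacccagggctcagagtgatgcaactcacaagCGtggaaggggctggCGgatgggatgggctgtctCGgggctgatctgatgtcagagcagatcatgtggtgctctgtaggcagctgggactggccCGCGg
Unc13c: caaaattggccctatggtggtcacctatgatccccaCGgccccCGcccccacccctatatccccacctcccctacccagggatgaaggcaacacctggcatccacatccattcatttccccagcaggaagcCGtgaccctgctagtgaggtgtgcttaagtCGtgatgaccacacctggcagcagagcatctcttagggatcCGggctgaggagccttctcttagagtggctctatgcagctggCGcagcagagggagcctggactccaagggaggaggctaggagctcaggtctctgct
Robo2 start at 355 kb: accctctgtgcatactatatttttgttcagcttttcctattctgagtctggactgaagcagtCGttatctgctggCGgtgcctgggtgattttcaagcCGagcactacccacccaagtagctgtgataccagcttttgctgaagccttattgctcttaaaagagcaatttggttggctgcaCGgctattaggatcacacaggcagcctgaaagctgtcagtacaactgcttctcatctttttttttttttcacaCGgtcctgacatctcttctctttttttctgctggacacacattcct
Robo2 start at 1036 kb: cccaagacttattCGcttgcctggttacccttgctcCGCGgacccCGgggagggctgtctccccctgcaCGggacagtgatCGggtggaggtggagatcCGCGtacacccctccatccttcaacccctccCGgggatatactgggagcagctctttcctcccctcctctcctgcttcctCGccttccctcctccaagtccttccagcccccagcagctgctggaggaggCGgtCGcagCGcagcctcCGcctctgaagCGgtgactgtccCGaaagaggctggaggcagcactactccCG
Mgat4c: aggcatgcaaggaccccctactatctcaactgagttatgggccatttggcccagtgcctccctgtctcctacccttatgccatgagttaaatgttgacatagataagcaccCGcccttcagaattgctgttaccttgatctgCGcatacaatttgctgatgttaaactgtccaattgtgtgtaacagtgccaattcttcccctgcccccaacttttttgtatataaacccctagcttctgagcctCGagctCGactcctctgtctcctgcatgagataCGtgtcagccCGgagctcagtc
Mecom: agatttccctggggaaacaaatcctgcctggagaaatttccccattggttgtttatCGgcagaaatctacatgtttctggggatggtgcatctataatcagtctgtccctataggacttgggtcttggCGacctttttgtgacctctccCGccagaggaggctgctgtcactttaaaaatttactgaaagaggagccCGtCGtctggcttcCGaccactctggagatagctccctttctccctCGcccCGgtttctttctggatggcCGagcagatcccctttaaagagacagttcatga

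These 8 promoters differed widely in base composition. Nkain2 held 43 CG dinucleotides in 300 bases and a GC content of 78.7%, and its peak had a fold of 10.6 over 1501 bp. The Cntn4 start, with the highest fold of any inner start (11.1 over 934 bp), held 4 CG and a GC content of 45%. Ank2 and Unc13c held 5 and 6 CG, with folds of 10.5 and 10.0. The Robo2 starts held 5 and 17 CG with folds of 7.82 and 8.90, and the starts without a peak near, Mgat4c and Mecom, held 6 and 9 CG. A high fold thus occurred at both CG-poor and CG-rich inner starts. The CG-rich Nkain2 start lay only 7.26 kb from the 5′ end of the span, and Nkain2 had no peak within 1 kb of either end.

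The 216 host genes spanned 502 kb to 2.27 Mb, with a median of 735 kb. The spans of 55 exceeded 1 Mb and those of 4 exceeded 2 Mb: Ptprd (a receptor tyrosine phosphatase of synapses), Cntnap2 (Caspr2, a relative of the neurexins), Lsamp (an adhesion molecule of the immunoglobulin class) and Lrp1b (a large lipoprotein receptor). Their interiors, each base counted once and without the margins at gene ends, covered 178.4 Mb. The density was 79.8 peaks per Mb (95% Poisson interval 78.5 to 81.1, for counting error only), or 1 peak per 12534 bp, and the peaks covered 4.73% of the interior bases. Peaks in more than 1 host gene numbered 94, so that counts over genes add up to 14349. These lie where gene models overlap, in Gm37013, Gm38666 and Gm38667 across clustered protocadherin genes of chromosome 18 and in Iqschfp and Schip1.

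Interior peaks were mostly of ordinary height. Their median fold was 3.18 (quartiles 2.67 to 3.97, range 1.57 to 17.6), against 3.18 (quartiles 2.60 to 4.24) over all peaks of the list, whose highest value was 28.0. By construction 25.0% of all peaks lay at or above the upper quartile of the fold, 4.24. Of the interior peaks 2886, or 20.3%, did so. The whole list includes peaks at gene ends, which the rule leaves out. Among peaks counted away from gene ends in the same way, the share was 17.8% in genes of 200 to 500 kb. It was 17.4% to 17.6% in shorter genes and 26.4% between protein-coding genes. The median width of the interior peaks was 487 bp (quartiles 331 to 742) against 557 bp over the list.

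Very long genes were less densely marked than other long genes. Genes with spans of 200 to 500 kb (729 genes) held 29202 interior peaks counted in the same way, a density of 135.7 per Mb (134.2 to 137.3). The density was 147.6 per Mb in genes of 100 to 200 kb, 128.0 in genes of 50 to 100 kb and 110.9 in genes of 20 to 50 kb. Space between protein-coding genes, noncoding genes included, held 35.7 per Mb (35.4 to 36.0). On each of the 19 autosomes the very long genes were less dense than the 3 classes from 50 to 500 kb and denser than the space between genes. Their own density ran from 40.3 per Mb on chromosome 1 to 114.3 on chromosome 9. Counted per gene, the median was 69.0 per Mb over the 216 host genes (quartiles 25.3 to 130.4) and 128.3 over the 729 genes of 200 to 500 kb (quartiles 47.8 to 216.1), so the ranges of single genes overlapped widely. The median fold was 3.18 in the very long genes and 3.06 in genes of 200 to 500 kb.

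The host genes differed among themselves more than the classes did. The number of interior peaks per gene had a median of 58 (quartiles 22 to 105) and reached 223. Densities below 10 per Mb were found in 23 genes, below 50 in 91, at or above 100 in 85 and at or above 200 in 22. The 23 genes with most peaks held 25% of all placements and 51 genes held 50%. Longer spans went with lower densities only loosely across the 216 genes (Spearman correlation -0.22, Pearson's r -0.28, given as a description, since span enters both measures and neighbouring peaks share a locus).

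**Figure D1:**
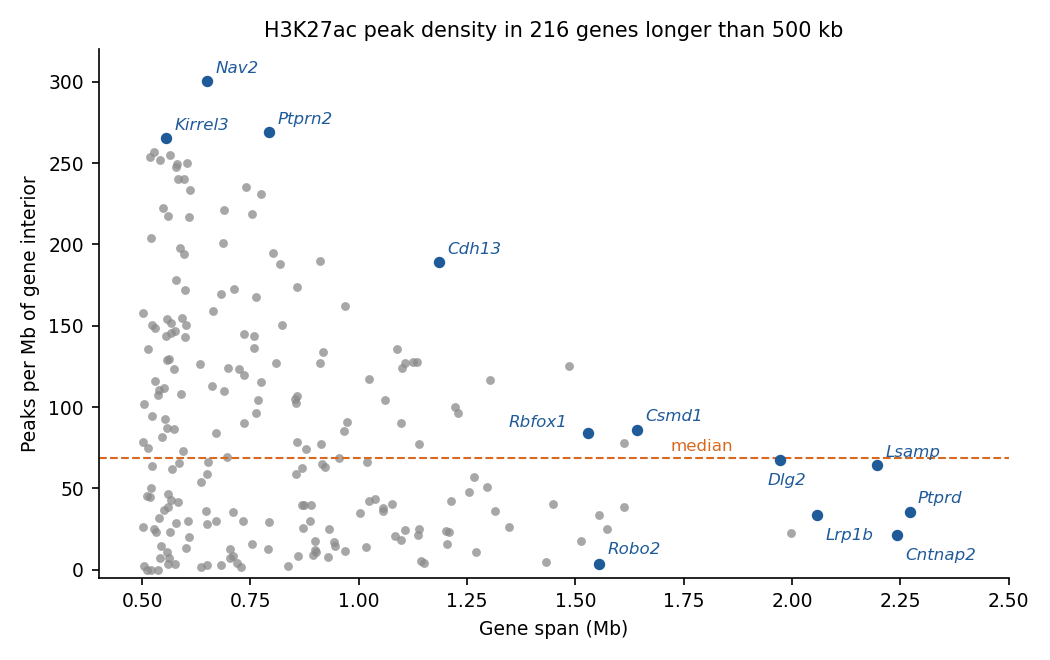
Peaks per Mb of gene interior (vertical axis) against gene span in Mb (horizontal axis) for the 216 host genes, 1 point per gene, with 12 genes named in blue and the median of 69.0 per Mb dashed. Densities from 0 to 300.3 occur among genes under 1 Mb, while the 4 genes over 2 Mb all lie below the median.

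The densest gene was Nav2, which encodes a microtubule-binding protein of growing axons, with 194 peaks in 651.0 kb, or 300.3 per Mb. Peaks covered 21.6% of its interior, the longest stretch without a summit was 12.9 kb, and each of 10 equal bins of the gene held 15 to 23 peaks. Yet the peaks were low, with a median fold of 2.70 and a highest fold of 6.99. Ptprn2 (phogrin, a protein of dense-core secretory vesicles) followed with 212 peaks at 269.2 per Mb, then Kirrel3 (a synaptic adhesion molecule) at 265.5, St6galnac3 (a sialyltransferase) at 256.8 and Enox1 at 255.1. The others of the 10 densest were Elmo1 (a partner of Dock proteins in Rac activation) at 253.5, Nfia (a nuclear factor I transcription factor) at 252.0, Kalrn (a guanine nucleotide exchange factor of dendritic spines) at 250.3, Csmd2 (a CUB and sushi domain membrane protein) at 249.7 and Ank2 at 247.5. Their spans ran from 517.8 kb to 792.5 kb, so none of the 10 exceeded 1 Mb.

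By number of peaks, Cdh13 led with 223 in 1.19 Mb, or 189.0 per Mb. It encodes T-cadherin, a cadherin anchored to the membrane by a lipid. After Cdh13, Ptprn2 and Nav2 came Magi2 (a synaptic scaffold) with 185 peaks, Tenm4 (a teneurin adhesion molecule) with 173, Arhgap26 (a GTPase-activating protein) with 172 and Dpp6 (an accessory subunit of A-type potassium channels) with 170. Negr1 and Ntm, adhesion molecules of the same small immunoglobulin family as Lsamp, held 164 and 156, and Camta1 (a calmodulin-binding transcription activator) held 154. The 10 longest genes were less dense than these. Ptprd held 81 peaks at 35.8 per Mb, Cntnap2 48 at 21.5, Lsamp 140 at 64.2, Lrp1b 69 at 33.6 and Macrod2 (an ADP-ribose hydrolase) 45 at 22.7. Dlg2 (the postsynaptic scaffold PSD-93) held 133 at 67.6 per Mb, Csmd1 140 at 86, Fhit (a diadenosine hydrolase) 62 at 38.6, Nrxn3 (a neurexin) 125 at 77.8 and Ctnna3 (an alpha-catenin) 39 at 25.0.

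At the other end, Cpq, Skint5 and Iqcm had no interior peak in the list, over spans of 511.4 kb, 521.6 kb and 535.8 kb. Malrd1, Fstl5 (a follistatin-like secreted protein) and Stpg2 held 1 each, at 1.38, 1.59 and 2.00 per Mb. Sugct, Galnt13 (a glycosyltransferase that starts O-linked glycans) and Cntnap5c (a relative of Cntnap2) held 2 each, at 2.4, 2.95 and 3.11 per Mb. Robo2 held 5 peaks in 1.56 Mb, or 3.23 per Mb.

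The height of the end peak and the density of the gene body were only loosely related. Of the 216 host genes, 198 (91.7%) carried a peak at most 1 kb from either end of the span, against 71.0% of the 20665 autosomal protein-coding genes. For the 169 host genes whose strand is known, the 5′ end carried a peak in 151, with a median fold of 7.94, and the 3′ end in 29, with a median fold of 3.65. Stpg2, with 1 interior peak, had a 5′ peak of fold 19.4. Sugct had one of 16.3, Fstl5 of 11.6, Zfp804b (a zinc finger protein, with 2 interior peaks) of 11.9 and Gpc5 (a glypican, with 7) of 11. Cpq, with none inside, had an end peak of 18.6. In Nav2, the densest gene, the 5′ peak had a fold of 5.66, and in Nfia it was 2.44. Other genes went the other way. The dense genes St6galnac3 (256.8 per Mb) and Kalrn (250.3) had 5′ peaks of 9.66 and 8.36. In the sparse genes Robo2 (3.23 per Mb) and Cdh18 (7.63) the 5′ folds were 4.62 and 3.83. Across the 198 genes with an end peak, the highest fold at an end and the interior density had a Spearman correlation of -0.18 and a Pearson's r of -0.23, given as a description over genes of 1 list. The genes with a 5′ peak had a median density of 84.1 per Mb (quartiles 27.3 to 144.4, n = 151), and the 18 without one had 43.5 (15.9 to 97.0), and their ranges overlapped.

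The neighbourhood was measured in the space between protein-coding genes up to 500 kb on each side. Of 215 host genes with at least 100 kb of such flank, 172 were denser inside than in the flanks, 42 were less dense and 1 was equal. The medians were 69.4 per Mb inside and 24.1 in the flanks. Flank and interior varied together (Spearman correlation 0.50, Pearson's r 0.40, n = 215 genes, as a description): the densest 25% of the genes had a median flank density of 49.3 per Mb (n = 54) and the sparsest 25% one of 8.48 (n = 53).

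Along the gene, peaks became denser toward the 3′ end. In the 169 genes of known strand, each span was divided into 10 equal bins. These genes hold 11553 placements, in which peaks shared by Iqschfp and Schip1 count in both genes. The density was 80.7 per Mb in the bin at the 5′ end, fell to 67.1 (62.9 to 71.6) in the fourth bin and reached 111.2 (105.6 to 116.9) in the last. With each span divided into 3 equal segments, the 3′ segment held 40.1% of the placements and the 5′ segment 29.8%. In genes of 200 to 500 kb with a known strand (538 genes) the profile was flatter, with 119.9 per Mb in the first bin, 137.8 in the fourth and 144.6 in the last. In the very long genes, the median fold did not follow the density and stayed between 3.11 and 3.32 over the 10 bins.

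**Figure D2:**
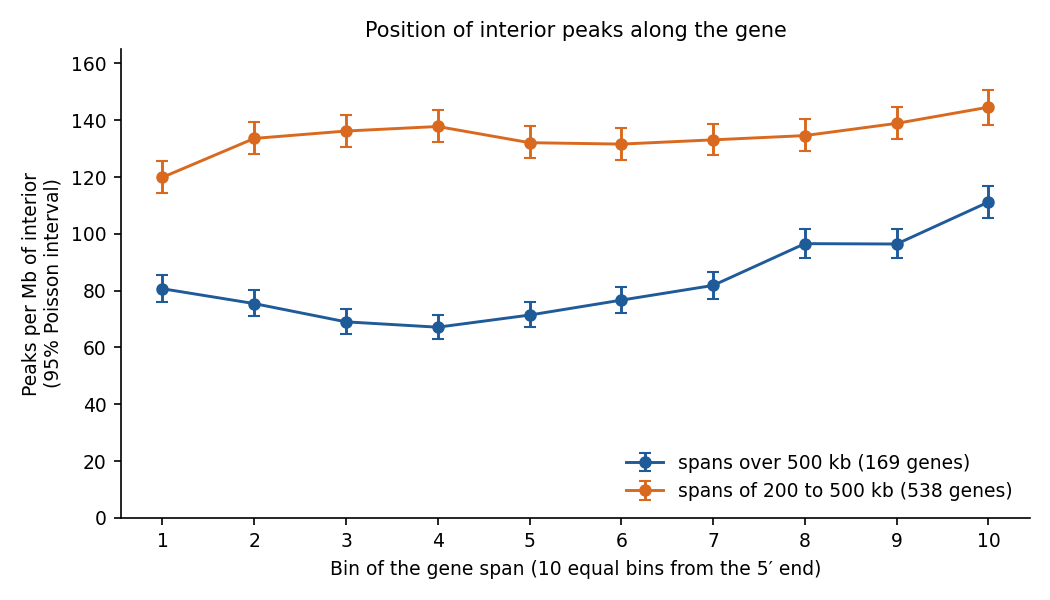
Interior peaks per Mb (vertical axis) in each of 10 equal bins of the gene span from the 5′ end (horizontal axis), for 169 genes over 500 kb (blue) and 538 genes of 200 to 500 kb (orange), with 95% Poisson intervals as bars. The blue line falls to 67.1 in the fourth bin and rises to 111.2 in the last, below the orange line in all 10 bins.

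Genes differed in this too. Among 132 genes of known strand with at least 20 interior peaks, 80 had more in the 3′ segment than in the 5′ segment, 48 had fewer and 4 had as many. The median share was 38.8% in the 3′ segment and 30.3% in the 5′ segment. In Agbl4, which encodes an enzyme that trims glutamate side chains of tubulin, 67 of 71 peaks lay in the 3′ segment. Cntnap2 had 43 of 48 there, with 31 in its last bin, and Galntl6 (a member of the GalNAc transferase family) 23 of 28. Anks1b (a synaptic scaffold protein) had 101 of 136 and Dlg2 97 of 133, of which 51 in the last bin. The opposite order occurred as well. Hdac9 (a histone deacetylase) had 1 of 54 in its 3′ segment and Pde1c (a calmodulin-dependent phosphodiesterase) 0 of 24. Ryr2 (a calcium release channel) had 31 of 51 in the 5′ segment and 3 in the 3′ segment. Kcnma1 (the BK potassium channel) had 67 of 122 in the 5′ segment, Grik2 (a kainate receptor subunit) 33 of 48 and Nkain2 21 of 28.

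The spacing of interior peaks varied widely. The values below pool genes of very different density, and whether peaks cluster within a gene was not tested. The distance between neighbouring summits of a gene had a median of 4403 bp (quartiles 1838 to 9589, 14136 distances), and 54.2% were under 5 kb, while 3.83% were over 50 kb. Of 1721 whole windows of 100 kb along the genes, 290 (16.9%) held no peak and 211 (12.3%) held 20 or more. The fullest stretch of 100 kb held 39 peaks, reached in Ank2, Kirrel3 and Zbtb20 (a zinc finger repressor). The longest distance between neighbouring summits was 657.0 kb, in Ccser1, and in Sgcz (zeta-sarcoglycan) 980.9 kb passed between a summit and the next summit or end of the gene.

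**Figure D3:**
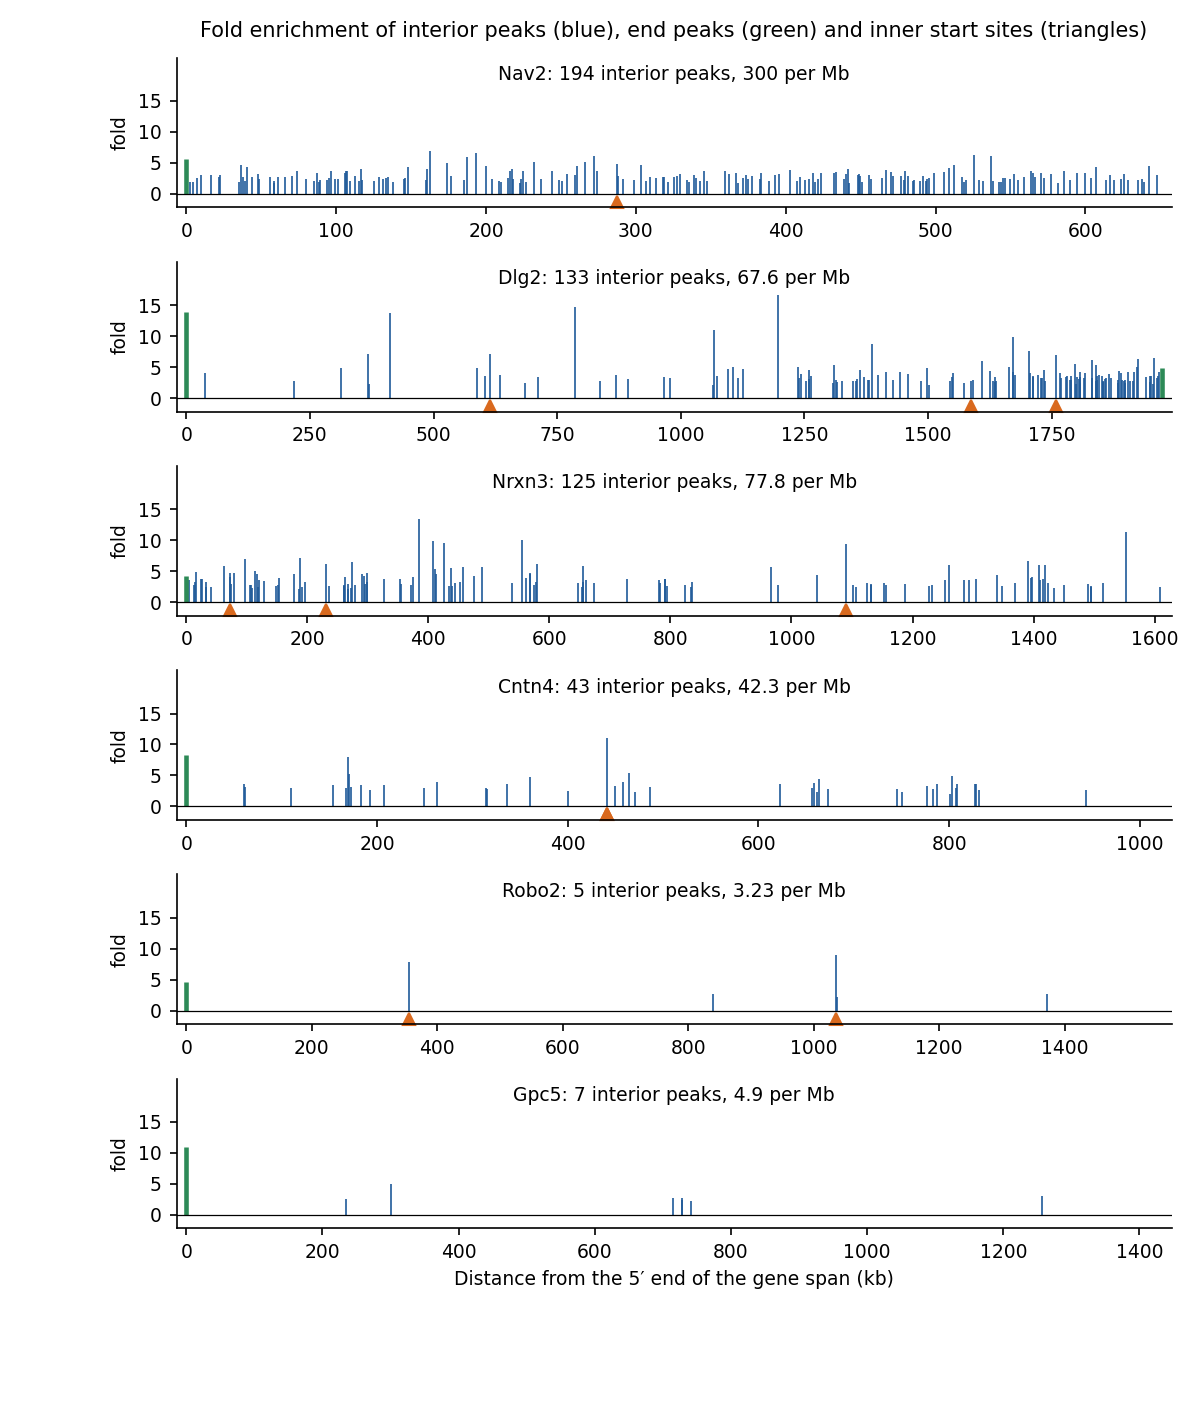
Fold of each interior peak (blue lines, vertical axis) against distance from the 5′ end of the gene span in kb (horizontal axis) in 6 genes, with peaks at gene ends in green and listed inner starts of the gene as orange triangles. Nav2 is filled evenly by 194 low peaks, Dlg2 is filled toward its 3′ end, and in Robo2 the tall peaks (7.82 and 8.90) stand over both inner starts.

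Inner promoters carried a peak in most cases. The RefSeq promoter table lists a start for 169 of the 216 host genes. In 136 of these the first listed start lay within 2500 bp of the 5′ end of the span, and in 33 it lay farther inside, so that an inner start can be the first one listed. In 75 genes, 120 listed starts lay in the interior, and they fall into 111 sites. Of these, 89 (80.2%, Wilson 95% interval 71.8 to 86.5, counting error only) had an interior peak of the same gene within 1 kb. By comparison, 17.6% of the interior bases of all host genes lay within 1 kb of a peak, and 18.9% in these 75 genes. The highest fold at the 89 sites had a median of 6.56 (quartiles 4.83 to 8.01, range 2.17 to 11.1).

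The strength of these inner sites stood in contrast to the rest of the gene body. The 106 peaks within 1 kb of an inner start of their own gene were 0.745% of the interior peaks. The fold of these had a median of 5.81 and the width one of 1219 bp, and 74 of them (69.8%) reached the upper quartile of the list. Starts of other genes inside the host genes, of which 265 belong to long noncoding RNAs and 1 to the protein-coding gene Lrrtm1 in Ctnna2, fall into 243 sites. A peak lay within 1 kb of 106 of those (43.6%, 37.5 to 49.9), and the 117 peaks there that were not also at a start of the host had a median fold of 3.36. The other 14010 peaks, 98.4% of the total, had a median fold of 3.18 and a median width of 484 bp. The 0.745% and 98.4% are shares of all interior peaks. In the 47 host genes without a listed start, no peak could be placed at a start of its own gene. Counting without strand cannot tell a start of the host from an antisense start beside it.

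**Figure D4:**
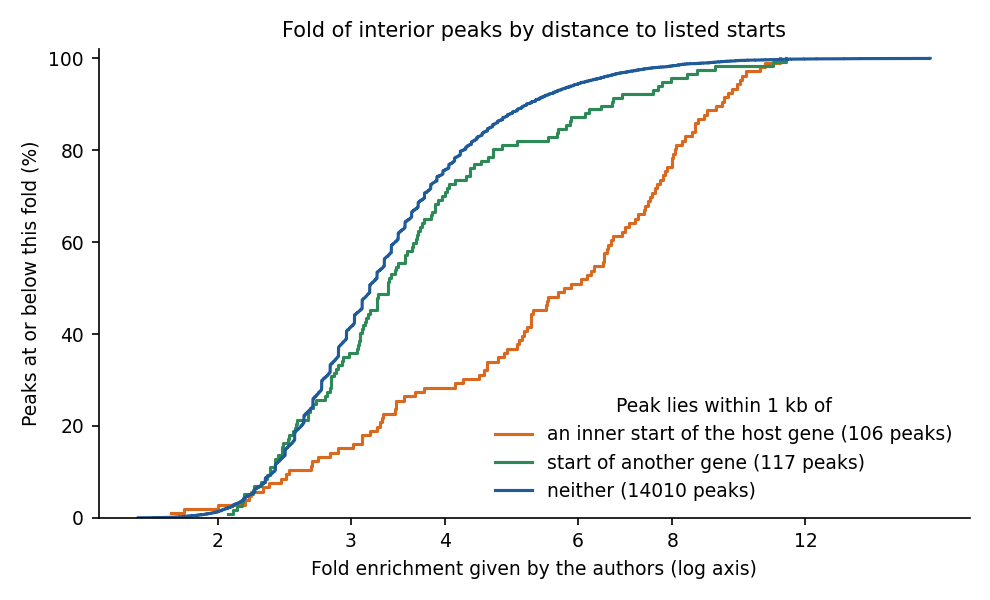
Cumulative percent of interior peaks (vertical axis) at or below each fold (horizontal log axis), for 106 peaks within 1 kb of an inner start of the host gene, 117 at a start of another gene and 14010 at neither. The orange curve lies far to the right, with a median fold of 5.81 against 3.36 and 3.18. The 14010 include peaks in host genes without a listed start.

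After Cntn4, Nkain2, Ank2 and Unc13c, the highest folds at inner starts were found in Kcnip4 (a potassium channel interacting protein, 9.90), Cdh18 (a cadherin, 9.82), Celf2 (an RNA-binding splicing regulator, 9.75), Epha6 (an ephrin receptor, 9.58), Sgcd (delta-sarcoglycan, 9.47) and Nrxn3 (9.37, at 1090 kb from its 5′ end). Celf2 and Nrxn3 each had 3 inner starts with a peak: in Celf2 at 315.0, 524.3 and 674.7 kb, with folds of 9.75, 8.58 and 6.92, and in Nrxn3 at 71.8, 230.7 and 1090 kb, with folds of 4.70, 6.25 and 9.37. In Robo2 the peaks over the starts at 354.7 kb and 1036 kb, with folds of 7.82 and 8.90 and widths of 2360 and 2019 bp, exceeded the 5′ end of the gene, whose fold was 4.62. The 22 inner sites without a peak included 3 in Sox6 (a transcription factor of the SOX family) and 2 each in Ctnna3 and Etl4. The interior peaks nearest to the Mgat4c and Mecom starts shown above lay 171.1 kb and 138.3 kb away.

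Inner starts were also counted apart in sparse and dense genes. In genes below 50 peaks per Mb, 27 of 35 sites had a peak, with a median of the highest fold of 7.99, and in denser genes 62 of 76 had one, with a median of 6.11. Among the 66 genes with a peak at an inner start, that peak was the strongest of the interior in 15 of 23 genes below 50 per Mb and in 4 of 43 denser genes. Dense genes have more peaks among which the strongest is found, and the part of this in the difference was not tested.

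In base composition, the 98 inner starts with a peak had a median of 8 CG in 300 bases (quartiles 5 to 16) and a GC content of 53.7%. The 22 without one had 2 CG (2 to 5.25) and 46.0%. The first listed starts near the 5′ end of the host genes (136) had 18 CG (10 to 28.25) and 62.7%, and all 31396 autosomal starts in the table had 7 (3 to 21) and 53.0%. At least 10 CG were found in 40 of the 98 marked inner starts (40.8%), 1 of the 22 unmarked ones (4.55%), 104 of the 136 outer ones (76.5%) and 44.0% of all. The letters TATAAA on either strand, anywhere in the 300 bases, occurred in 3 of the 98 (3.06%), 7 of the 22 (31.8%) and 14 of the 136 (10.3%), against 13.6% of all starts. These are counts of letters and say nothing of a factor.

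The tallest interior peaks lay away from any listed start. All 10 of the highest fold were more than 1 kb from each start in the table. The first, with a fold of 17.6 over 578 bp, lay at chr1:160692807-160693384 in Rabgap1l (a Rab GTPase-activating protein), 100.2 kb from the 5′ end. Dlg2 held 3 of the 10, with folds of 16.6, 14.6 and 13.8 at 1196, 786.0 and 411.3 kb from its 5′ end, all before the 3′ segment that held 97 of its 133 peaks. Others of the 10 were in Rora (an orphan nuclear receptor, 15), Mast4 (a microtubule-associated kinase, 13.7), Syne1 (a nuclear envelope spectrin-repeat protein, 13.7) and Nrxn3 (13.5). In Dlg2 the tallest interior peak exceeded the 5′ end of the gene, at 13.9, and in Rora the values were 15 and 5.97. Whether these peaks lie in exons or introns was not classed. Across the 213 genes with an interior peak, the highest fold and the density had a Spearman correlation of 0.40, and the median fold and the density one of -0.35, both as descriptions.

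The widest interior peak was of another kind. It measured 3670 bp with a fold of 5.13, at chr7:96209814-96213483, over an inner start of Tenm4 39.5 kb from its 5′ end. Rgs6 (a regulator of G protein signalling) held one of 3342 bp, Camta1 had peaks of 3339 and 3063 bp, and Tmem132d had one of 3176 bp. None of these 4 lay at a listed start.

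The host genes were grouped by function into 13 lists, which together take in 149 of them, 13 in more than 1 list. Transcription and chromatin regulators had the highest median density, 127.2 per Mb over 17 genes. Of the 17, 10 were at or above 100 and 4 below 50, against 85 and 91 of all 216 host genes. These regulators ran from Zfp804b at 3.57 to Nfia at 252.0. Cytoskeletal proteins and their adaptors followed at 124.2 (13 genes, from Sgcz at 5.27 to Nav2). The 5 genes listed for glia had 116.3. These were Gpc5 at 4.90, Pcdh15 at 33.6, Lhfpl3 at 116.3, Zbtb20 at 136.2 and Npas3 (a bHLH-PAS transcription factor) at 150.2. Pcdh15 was also in the adhesion list, and Zbtb20 and Npas3 were also among the regulators. Phosphodiesterases, kinases and phosphatases had 94.7 (13 genes, from Dgkb, a diacylglycerol kinase, at 16 to Ptprn2).

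The next 5 lists had medians from 60.1 to 85.4 per Mb, against 69.0 over all host genes. The 33 genes of neuronal and synaptic adhesion had a median of 85.4 per Mb. Of the 33, 13 were at or above 100 and 12 below 50, against 85 and 91 of all 216 host genes. Neurotransmitter receptors and scaffolds had 76.8 (12 genes, from Grm8, a metabotropic glutamate receptor, at 8.19 to Magi1, a junction and synapse scaffold, at 217.1). Genes of synaptic vesicle release had 76.3 (6 genes, from Unc13c at 24.8 to Nbea, a membrane trafficking protein, at 153.9). Ion channels and their partners had 74.6 (13 genes, from Fgf14, a partner of sodium channels, at 13 to Cacna1c, the L-type calcium channel Cav1.2, at 233.3). The 4 RNA-binding proteins had 60.1, with Khdrbs2 at 23.4 and Celf2 at 106.9.

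Lower medians were found for 15 genes at common fragile sites with 42.3 (from Ccser1 at 15.9 to Magi2 at 125.0), 14 proteoglycan, matrix and glycan enzyme genes with 40.2 (from Galnt13 to St6galnac3) and 10 genes of axon guidance and neuregulin signalling with 32.4, from Robo2 at 3.23 to Slit3 (a Slit ligand) at 197.6. The 7 genes known above all outside the brain had 13.8. Of these, Pkhd1, the gene of recessive polycystic kidney disease, had 3.60, and Lpp, a focal adhesion protein, 171.7. The 67 genes in no list had 58.8. Densities differed widely within each list, the lists overlapped, and none was tested against the others.

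**Figure D5:**
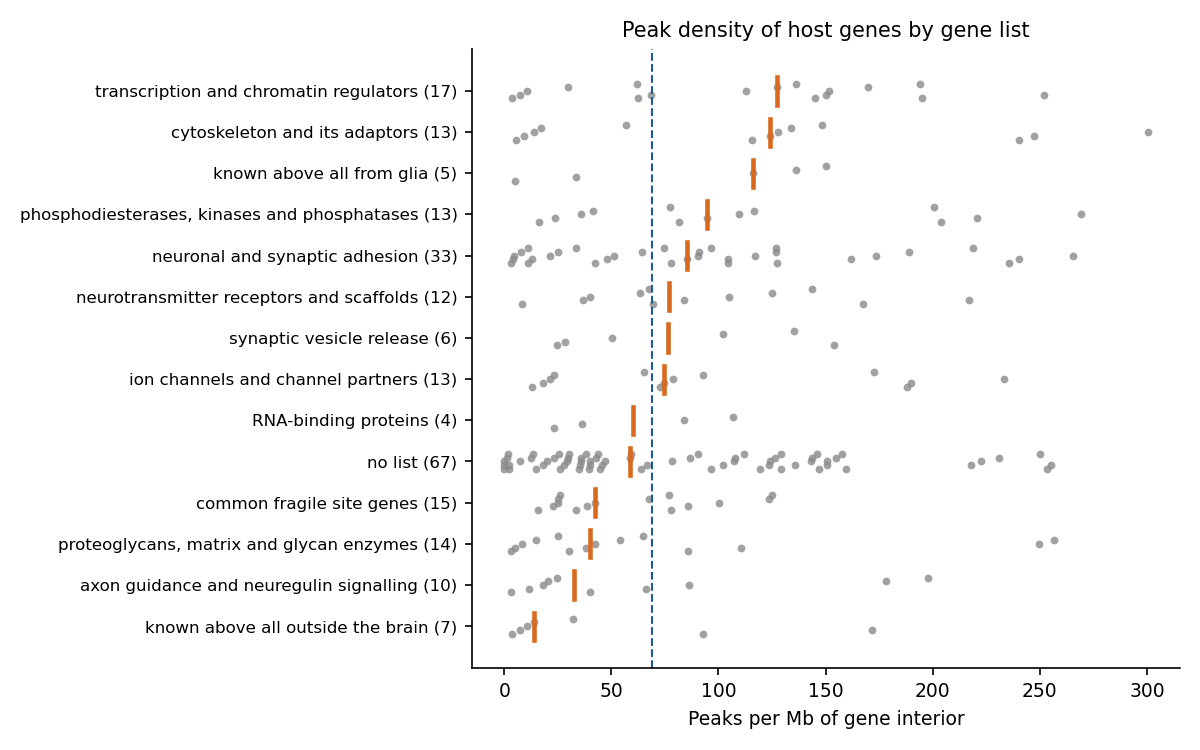
Peaks per Mb of gene interior (horizontal axis) for the host genes in each list (rows, number of genes in brackets), 1 point per gene, with the list median as an orange bar and the median of all 216 genes, 69.0, dashed. The points of the lists overlap from below 50 to above 100 per Mb, and list medians run from 13.8 to 127.2.

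Genes and peaks at the limits of the rule are given as a description. The shortest host spans were those of Edil3 (501754 bp, 78.5 per Mb), Dock1 (502961 bp, 157.8) and Samd12 (503423 bp, 26.1), and the longest spans left out were those of Dnm3 (495872 bp, 201.7), Lrrc7 (494798 bp, 67.4) and Cacna1e (493980 bp, 147.2). The interior peaks closest to the distance limit lay 2504, 2505 and 2509 bp from a gene end, in Tafa1, Grm5 and Thsd4, with folds of 3.54, 4.95 and 3.18. Those just excluded lay at 2483, 2473 and 2461 bp, in Edil3, Rims1 and Ctnna2, with folds of 3.59, 1.80 and 3.68. The 329 peaks of these spans within 2500 bp of an end had a median fold of 4.96, and the 140 interior peaks between 2500 and 5000 bp from an end had 3.18.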

How the data were processed

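One peak list of bulk H3K27ac CUT&Tag in mouse hypothalamus was analysed; it covers the 3 samples together. Per the submitters' processing notes, the build was mm10 and the tools included BWA 0.7.17, MACS2 (version not given), UMI-tools 1.1.4, STAR 2.7.10a and cutadapt 4.5; no role is stated for them. The caller's settings, its background, any blacklist and how replicates were combined were not given in the sources used here. What the authors deposited has no header and was read as narrowPeak: position, score, fold (linear ratio), −log10 p, −log10 q and summit offset. The fold deposited by the authors was used to describe and rank peaks within the list, the −log10 q deposited by the authors to define a stricter set, and the score and −log10 p deposited by the authors were not used. The depth behind the peaks is unknown.

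Gene spans came from RefSeq (GRCm38.p6), and strands and starts from its promoter table, which matched 169 of 216 host genes; the other 47 entered no analysis by strand. No genome was given, so exon, intron and peak sequence were not classed. Peaks were placed by summit with Python 3.11.15, numpy 2.4.6, pandas 2.3.3 and scipy 1.17.1 and plotted with matplotlib 3.10.9; the placement was checked on simulated summits. Densities divide counts by interior length. Poisson and Wilson 95% intervals cover counting error only, and neighbouring peaks are not independent. No test was run: 1 list holds no replicates. Alternatives changed the summit rule, distance, span limit, gene set and peak strength. Genes were named by rule: the 10 with most peaks, the 10 densest, sparsest and longest, the extremes of each list, the 10 highest and 5 widest peaks and those at the limits; genes at extremes of position, of end fold and at inner starts, and Robo2, were added after their values were seen. The genes, lists and rule were chosen with earlier results of these data known. Some named items are not reported here.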

Additional observations from a re-analysis of the deposited data

How the results depend on the processing

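The number of interior peaks, the number of genes with one, the density, the median fold and the share in the outer 20% at either end of the gene (14233, 213, 79.8 per Mb, 3.18 and 43.7%) stayed within their counting error or 1.5 times under placement by midpoint or whole interval, distances of 1000 or 5000 bp, the ends of every gene and the removal of predicted genes. The outer parts are made of the outermost equal bins of each span and the bins next to them. The outermost bins held 22.6% of the placements and 19.5% of the interior length. The bins next to them held 21.1% and 20.1%, so the excess over length was small. Keeping only upper-quartile peaks by fold gave 2886 peaks, 16.2 per Mb, a median fold of 5.19 and 41.0% in the outer parts. For these peaks the excess over length was smaller still. Peaks above the median −log10 q gave 5971, 33.5 per Mb and a median fold of 4.19. The lower counts and densities follow from either filter itself, and the higher median fold follows from the filter by fold. A span limit of 400 kb gave 331 genes, 91.4 per Mb, a median fold of 3.16 and 42.3%. A limit of 750 kb gave 7489 peaks, 105 genes, 65.9 per Mb, a median fold of 3.25 and 44.7%. Further alternatives were chosen after seeing the data. The share of inner start sites with a peak (80.2%) was 77.5% within 500 bp and 82.9% within 2 kb, against 11.8% and 26.7% of interior bases. With upper-quartile peaks only it was 65.8%, against 4.53% of bases. Of the placements in genes of known strand, the last of 3 equal segments held 40.1%. It held 38.1% for upper-quartile peaks, 41.4% for those above the median q and 42.7% in spans over 750 kb. The first segments held 27.8%, 28.3% and 28.6% under these alternatives, in the same order. No paired analysis was possible because 1 list covers the 3 samples and its columns carry no replicate; for the same reason no sample could be left out. Depth is unknown, so an empty stretch is one without a peak in this list.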

Other observations

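The X chromosome, which the rule leaves out, holds 11 protein-coding genes longer than 500 kb, and these were sparse. Counted in the same way they held 52 interior peaks, with a median density of 5.11 per Mb. Dmd, the dystrophin gene and at 2.39 Mb longer than any autosomal host, held 17 peaks, or 7.20 per Mb, with a highest fold of 11.9. Aff2 (a transcription elongation factor family member) was the densest at 9.87 per Mb, and Fgf13 (a partner of sodium channels) had 9.64. Il1rapl2, of the interleukin-1 receptor accessory family, held 1 peak at 0.789 per Mb. Arhgap6, a GTPase-activating protein, held 3 peaks, 1 of which had a fold of 13.8. On the autosomes 23 of 216 host genes lay below 10 per Mb, and on the X chromosome all 11 did. No density is given here for shorter X-linked genes or for X space between protein-coding genes. Whether the low values are particular to these 11 genes was not tested. The sex of the animals is not given in the labels.

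The host genes contain 26 microRNA hairpins of the RefSeq table, and 8 of these had an interior peak within 1 kb, while 17.6% of the interior bases lay that close to a peak. Among the 8, Mir1904 in Pde4d (a cyclic AMP phosphodiesterase) had a peak of fold 7.65 nearby, Mir153 in Ptprn2 one of 3.20 and Mir218-2 in Slit3 one of 2.37. In Ptprn2 and Slit3 other peaks were higher, at 8.93 and 10.9. The Slit3 peak of fold 10.9 lay within 1 kb of the start of a long noncoding RNA, Gm39705, and the highest fold at any such start was 11.3, at Gm9968 in Zbtb20.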
